A study of Mus musculus with 401 samples.

Results

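The genes described here were the 8 that encode proteins of the subcortical maternal complex or proteins reported to associate with it, namely Nlrp5, Ooep, Tle6, Khdc3, Padi6, Nlrp2, Nlrp4f and Zbed3. They were chosen by name, and all 8 of the 43633 genes in the 2 count tables that bear these names were found in both tables by their Ensembl identifiers. The complex lies under the cortex of the growing and fully grown mammalian oocyte and of the early embryo. Its proteins are made from transcripts that the oocyte accumulates during growth, and loss of several of them in the mother arrests her embryos during cleavage, so the genes are classed as maternal effect genes. Nlrp5 (also called Mater), Ooep (Floped) and Tle6 form its core, to which Khdc3 (Filia) binds, and Padi6 is needed for the cytoplasmic lattices of the oocyte.

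RamDA-seq, a full-length total RNA method for single cells, had been applied to single oocytes and to the cumulus cells around each of them, in B6D2F1 (C57BL/6 x DBA/2) female mice. In the first set, Young (2 months), Middle (9 months) and Old (14 months) mice were fed ad libitum and CR mice (9 months) had been under calorie restriction. In the second set, mice fed ad libitum were 2, 4, 9 or 14 months old (2mo, 4mo, 9mo and 14mo) or 2 months old without hyperovulation (2moNoH). Mice other than the 2moNoH mice had been hyperovulated with eCG or CARD HyperOva, and the sources used here do not say which was given to which mouse. Each complex came from a fully grown follicle of a dissected ovary, so its oocyte had not been ovulated, and all groups were of the same F1 hybrid.

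Of 401 libraries, 399 were analysed, 200 of oocytes and 199 of cumulus cells. The oocytes came from 16 Young, 14 Middle, 16 Old, 27 CR, 24 2mo, 39 4mo, 16 9mo, 16 14mo and 32 2moNoH complexes. They carried 2, 4, 2, 3, 5, 8, 4, 5 and 8 mouse labels, and 1 of the 2 Old labels (Old1_2, 11 oocytes) joins 2 mice. Libraries and not mice were compared, as in the study, so p-values treat oocytes of the same mouse as replicates. Totals were 559305 to 4536690 counts in oocytes of the first set and 1238441 to 2583456 in the second. All CR oocytes (2752043 to 4536690) were deeper than all Middle oocytes (1903858 to 2624876). Oocyte libraries held the 13 oocyte markers at a median of 18930 counts-per-million (CPM) in Young and 20640 in 2mo, and the 12 cumulus markers at 195.5 and 101.1 CPM. In 1 Middle complex the library labelled oocyte correlated better with cumulus libraries (r = 0.9386) than with the other oocytes (r = 0.7502), and both its libraries were left out.

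The genes lie on 5 chromosomes (GRCm38). Nlrp5 (ENSMUSG00000015721) spans chr7:23385889-23441922 on the + strand and Nlrp2 (ENSMUSG00000035177) chr7:5298547-5351035 on the − strand. Ooep (ENSMUSG00000032346, chr9:78376109-78378725, − strand) and Khdc3 (ENSMUSG00000092622, chr9:73101836-73104438, + strand) are the shortest genes, both of KH-domain proteins. Padi6 (ENSMUSG00000040935) spans chr4:140727355-140742643 and Tle6 (ENSMUSG00000034758) chr10:81590904-81601073, both on the − strand. Nlrp4f (ENSMUSG00000032999, chr13:65177111-65205977, − strand) and Zbed3 (ENSMUSG00000041995, chr13:95323612-95337841, + strand) share chromosome 13. Values are per whole gene, over all its exons. Khdc3 overlaps the same-strand gene Gm20509 over 1969 bases, Nlrp2 overlaps Gm18757 and Gm5065 on the opposite strand, and reads of such genes could not be told apart by these counts. Multi-mapped reads were shared between genes by the authors, so counts need not be whole numbers. In the first set the count was not whole in 82.2% of oocyte libraries for Nlrp4f and 68.5% for Nlrp5, 2 members of the large oocyte NLR family. The corresponding shares were 58.9% for Khdc3, 53.4% for Zbed3, 52.1% for Nlrp2, 47.9% for Tle6, 21.9% for Padi6 and 16.4% for Ooep. These are shares of libraries, and how much of each level came from shared reads is not known.

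Oocyte promoters often hold E-boxes (CANNTG), the sequence bound by the basic helix-loop-helix factor FIGLA with its partner. RefSeq promoters (GRCm38.p6) were found for all 8 genes, at 12 annotated starts. The 250 bases before the start are shown for the 4 genes whose window touches no exon of the gene, because these genes differed in how they behaved in Old oocytes, with Padi6, Nlrp5 and Nlrp2 varying together and Zbed3 apart from them. Capitals mark each CANNTG, a motif that reads the same on both strands in this form, and the last base is the base before the start.
Padi6: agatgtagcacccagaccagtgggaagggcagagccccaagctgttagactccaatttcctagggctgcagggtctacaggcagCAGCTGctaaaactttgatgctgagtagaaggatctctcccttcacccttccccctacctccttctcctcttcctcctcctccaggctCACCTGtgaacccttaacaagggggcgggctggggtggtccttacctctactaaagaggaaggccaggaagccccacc
Nlrp5: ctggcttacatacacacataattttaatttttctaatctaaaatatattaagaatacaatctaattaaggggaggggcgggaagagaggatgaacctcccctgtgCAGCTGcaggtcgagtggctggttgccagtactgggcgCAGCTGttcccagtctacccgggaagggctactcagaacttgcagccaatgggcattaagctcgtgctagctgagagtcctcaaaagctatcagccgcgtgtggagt
Nlrp2: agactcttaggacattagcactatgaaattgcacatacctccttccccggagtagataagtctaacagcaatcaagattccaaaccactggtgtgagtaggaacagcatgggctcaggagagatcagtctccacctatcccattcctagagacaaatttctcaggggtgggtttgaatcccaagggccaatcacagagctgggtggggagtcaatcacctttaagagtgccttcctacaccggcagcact
Zbed3: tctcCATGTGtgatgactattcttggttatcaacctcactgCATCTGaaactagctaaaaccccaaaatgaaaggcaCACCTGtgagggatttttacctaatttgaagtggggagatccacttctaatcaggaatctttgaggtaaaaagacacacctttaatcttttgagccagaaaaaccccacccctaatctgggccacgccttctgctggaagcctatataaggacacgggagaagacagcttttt

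The Padi6 window (chr4:140742644-140742893, − strand) held E-boxes beginning 166 and 78 bases before the start, and the Nlrp5 window (chr7:23385639-23385888, + strand) at 145 and 107 bases. The Zbed3 window shown (chr13:95323355-95323604, + strand) held 3, at 246, 209 and 173 bases, and the Nlrp2 window (chr7:5351036-5351285, − strand) held none. Nlrp5 and Zbed3 had further starts whose windows are not shown and also touch no exon. That of Nlrp5 (chr7:23403852-23404101) held 2 E-boxes. Those of Zbed3 (chr13:95324575-95324824 and chr13:95326517-95326766) held 1 each, so the Zbed3 window shown is the one with most. A CANNTG was present in 11 of the 12 windows of the 8 genes and in 66.22% of 32851 mouse promoter windows of that length. The motif TAATTG or its reverse complement CAATTA was present in 1 of the 12 and in 7.169% of all windows, and TATAAA or TTTATA in 2 of the 12 and in 12.37%. Matches are letters in these windows and say nothing of binding.

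All 8 genes were among the more abundant transcripts of the oocyte, and together they took 1.37% (first set) and 1.47% (second set) of the oocyte counts. Per kilobase of exons, Zbed3, a BED-type zinc finger protein gene, had the highest mean level of the 8, at 3135 CPM (scaled by TMM within each set) per kb in the first set (rank 6 of 40421 genes) and 3554 in the second (rank 3 of 41812). Padi6, of the peptidylarginine deiminase family, followed at 1464 and 1397 CPM per kb, rank 21 in both sets. Nlrp4f (417 and 418), Tle6 (381 and 429) and Nlrp5 (354 and 319) lay close together at this scale, and their order differed between the sets. Ooep was at 232 and 283 CPM per kb and Nlrp2 at 122 and 137. Khdc3 was the lowest member, at 88.1 and 109 CPM per kb, still rank 637 and 502. The levels of Zbed3 and Padi6 thus stood apart from the rest and from each other, whereas the 3 in the middle were not separated.

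**Figure D1:**
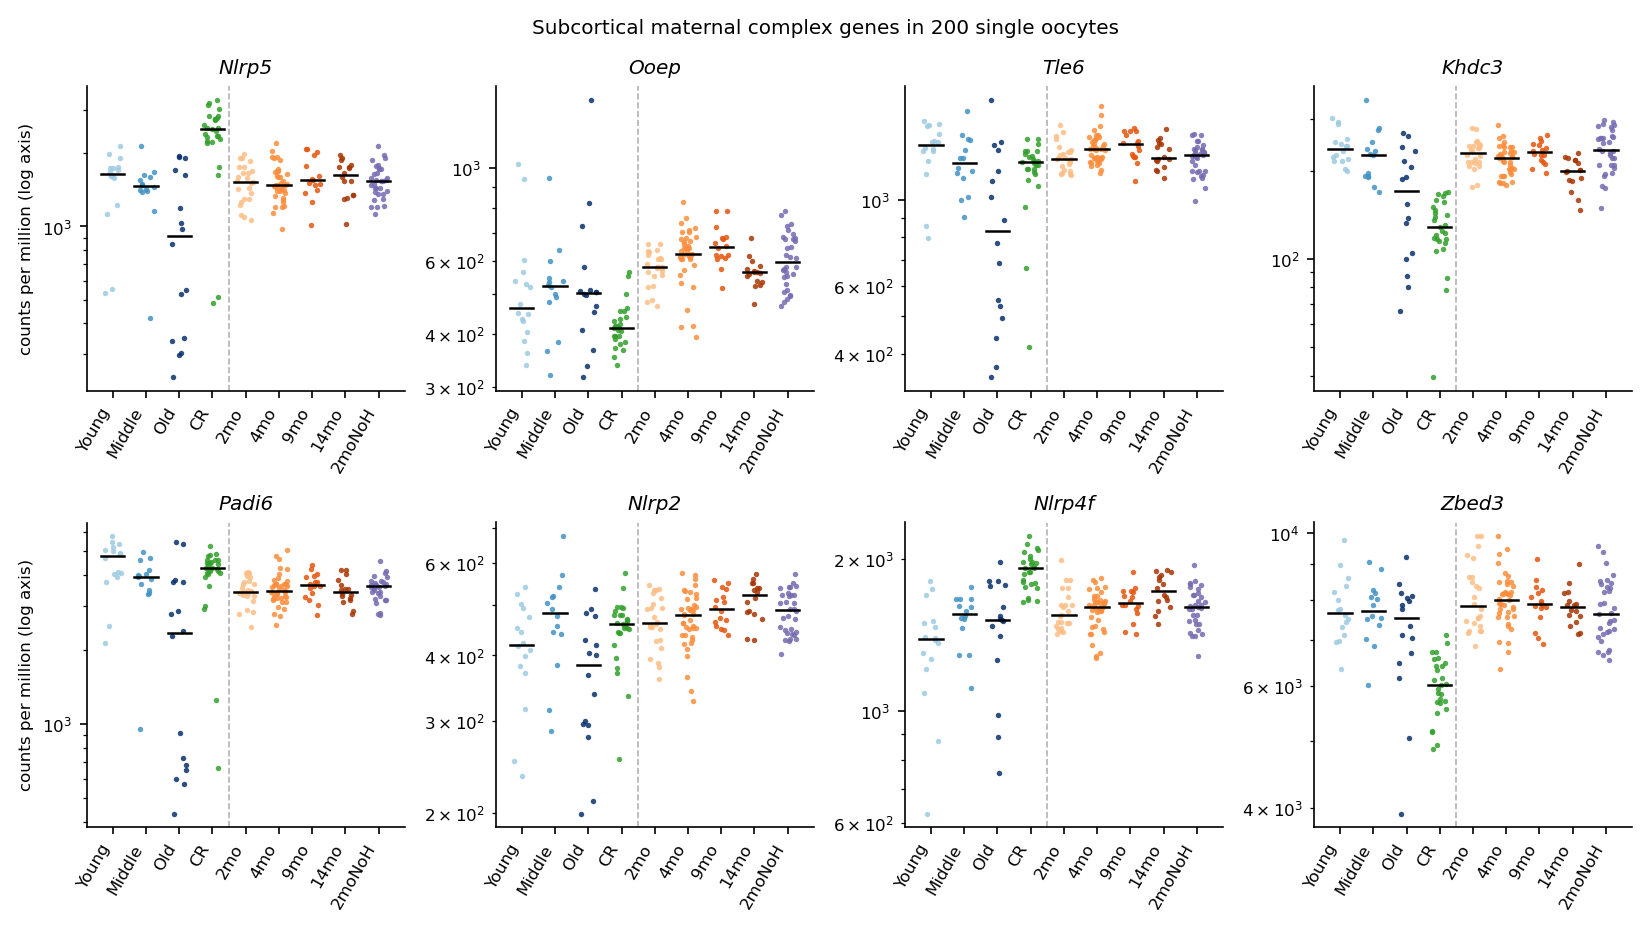
TMM-normalised CPM of the 8 genes in each oocyte library (log axes of unequal range), by group, with the dashed line between the first and the second set. Points are single oocytes and bars are group medians. Old oocytes spread most for Padi6 (433 to 5456) and Nlrp5 (241 to 1947), and CR oocytes lie lower for Khdc3 and higher for Nlrp5 than Middle oocytes.

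The first question was how the transcripts differed with age. In the first set, Khdc3 was lower in Old than in Young oocytes, and Padi6, Nlrp5 and Tle6 had lower means with a wide spread among the Old oocytes. Khdc3, whose protein has been linked to correct chromosome segregation in cleavage embryos, was 199, 238 and 303 CPM (lowest, median and highest) in 16 Young oocytes, 170, 227 and 349 in 14 Middle oocytes and 66.4, 170 and 270 in 16 Old oocytes. The ranges of Young and Old overlapped, but 10 of 16 Old oocytes lay below every Young oocyte. The difference between Old and Young was −0.49 on the log2 scale (SE 0.16, adjusted p = 0.0490, edgeR's quasi-likelihood test with Benjamini-Hochberg adjustment). Khdc3 was the 1 member of 8 that passed, against 7.39% of 23100 genes tested, of which 2.99% were lower.

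Padi6 was 2131, 4795 and 5758 CPM in Young, 955, 3951 and 4978 in Middle and 433, 2331 and 5456 in Old oocytes. Its mean was lower in Old (2317 ± 1742 CPM, SD, n = 16) than in Young (4441 ± 1025, n = 16). In edgeR's fit the difference was 1.87-fold (log2 difference −0.90, SE 0.30), with an adjusted p of 0.0535. The Old values had a gap in them, with 7 oocytes from 433 to 921 CPM and the next at 2281. Tle6, of the Groucho family of corepressors, was 796, 1386 and 1600 CPM in Young and 348, 830 and 1815 in Old (−0.54, SE 0.19, adjusted p = 0.0615). Nlrp5 was 531, 1637 and 2143 CPM in Young and 241, 910 and 1947 in Old (−0.60, SE 0.27, adjusted p = 0.1499). Both ranges overlapped in their upper part, and the lowest Old oocytes lay below all Young ones.

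The other members showed no such tail of low Old oocytes, or a lesser one. Nlrp2, whose protein is an NLR family member like that of Nlrp5, was 235, 419 and 540 CPM in Young and 199.5, 384 and 535 in Old (−0.12, SE 0.13). Nlrp4f was 626, 1388 and 1811 in Young and 752, 1517 and 1977 in Old (+0.17, SE 0.14). Ooep was 337, 461 and 1023 in Young and 316, 502 and 1453 in Old (+0.12, SE 0.18). Zbed3 was 6354, 7665 and 9777 in Young and 3924, 7538 and 9232 in Old (−0.07, SE 0.10). None of these 4 passed the test. The median difference of the 8 genes was −0.31, beside +0.11 over all genes tested.

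**Figure D2:**
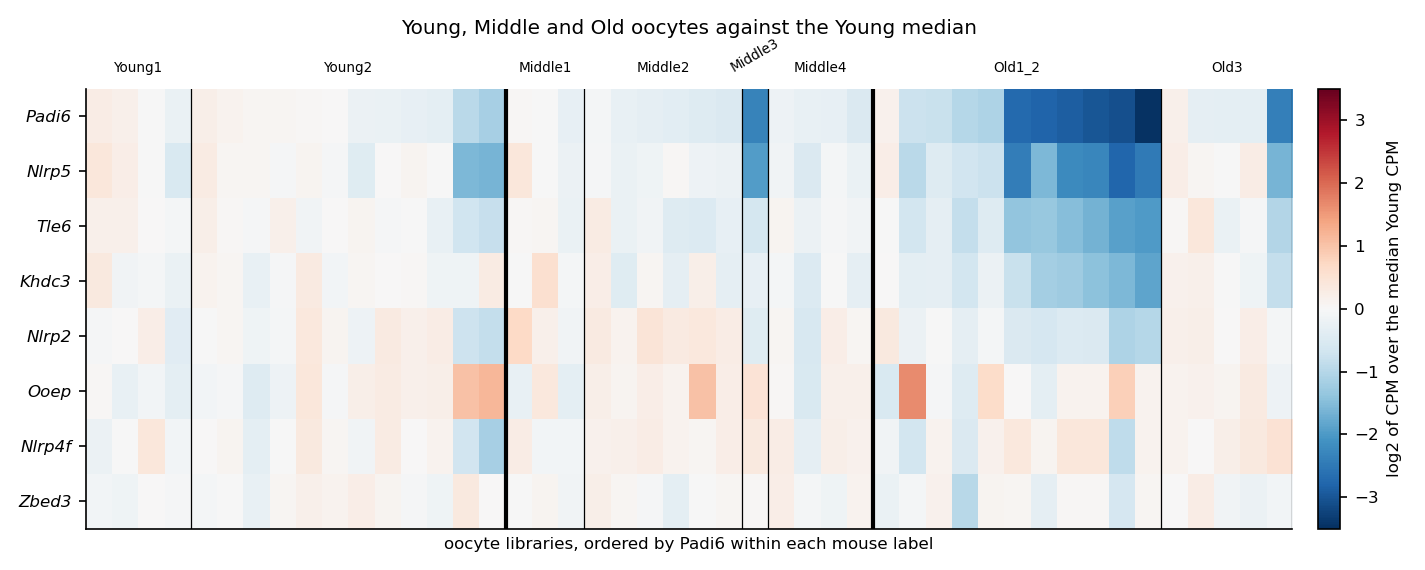
Colour map of log2 CPM over the median Young CPM for the 8 genes (rows) in each Young, Middle and Old oocyte (columns), ordered by Padi6 within each mouse label, with blue below and red above the Young median. In 7 of 16 Old oocytes Padi6 is below its lowest Young value, and in them Nlrp5, Tle6 and Khdc3 are low too. Among these 7, Nlrp4f and Ooep are in no oocyte below their lowest Young values, and Zbed3 is in 2.

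The 5 genes Nlrp5, Tle6, Khdc3, Padi6 and Nlrp2 varied together over the Old oocytes. Over the 16 Old oocytes their 10 pairwise correlations of log2 CPM were 0.89 to 0.98, whereas those of each of the 5 with Nlrp4f, Zbed3 and Ooep were −0.18 to 0.27. The same 10 correlations were 0.61 to 0.97 in CR, 0.32 to 0.95 in Middle and −0.15 to 0.71 over the second set. In Young oocytes, pairs of Nlrp5, Tle6, Padi6 and Nlrp2 were at 0.65 to 0.93. With these 4, Nlrp4f was at 0.71 to 0.92 and Khdc3 at −0.03 to 0.06. Oocytes of the same mouse and libraries of unequal depth are among all these points, and the 5 genes were named from these same correlations. With the mitochondrial share of counts, the 5 correlated at −0.66 to −0.48 in Old oocytes. There Nlrp4f was at −0.65, Zbed3 at −0.42 and Ooep at 0.45. In Young oocytes Nlrp5, Tle6, Padi6 and Nlrp2 were at −0.91 to −0.82, Nlrp4f at −0.85 and Khdc3 at 0.12. What part the mitochondrial share has in the correlations between genes was not tested. Old oocytes below every Young oocyte numbered 10 for Khdc3, 8 for Tle6, 7 for Padi6, 6 for Nlrp5, 3 for Zbed3, 2 for Ooep, 2 for Nlrp2 and 0 for Nlrp4f. At least 3 members were below every Young oocyte in 8 Old oocytes, 7 labelled Old1_2 and 1 labelled Old3. In the Old oocyte with the least Padi6 (433 CPM), Nlrp5 was 295.7, Tle6 347.9 and Khdc3 66.43 CPM, while Nlrp4f was 1514, Ooep 504.5 and Zbed3 8039 CPM, each of the last 3 within the Young range.

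Low Padi6 was also met outside the Old group. It was below its lowest Young value in 1 of 14 Middle and 2 of 27 CR oocytes as well as in 7 of 16 Old oocytes, and in 0 of the 127 oocytes of the second set. Nlrp5 was below its lowest Young value in 9 of these 10 oocytes and in no other oocyte of the Middle, Old and CR groups. Khdc3 was in all 10, but also in 6 of 14 Middle, 10 of 16 Old and 27 of 27 CR oocytes. Nlrp4f and Ooep were in none of the 10 and Zbed3 in 2, both Old (5054 and 6165 CPM). The Middle oocyte had Padi6 at 955, Nlrp5 at 421.8 and Nlrp4f at 1761 CPM, and the lower CR oocyte had Padi6 at 662.3, Nlrp5 at 485.7 and Nlrp4f at 1784 CPM. That Middle oocyte was the only analysed oocyte of mouse Middle3, the mouse of the complex left out. The lowest 2 Young oocytes, both of mouse Young2, had another combination, with Padi6 at 2131 and 2492 CPM, Nlrp5 at 531 and 555 and Nlrp4f at 626 and 870, but Ooep at 1023 and 938.

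The age difference depended on which Old mice entered the test. With the 5 oocytes labelled Old3 left out, Khdc3 (−0.72, adjusted p = 0.00559), Padi6 (−1.29, 0.00805), Tle6 (−0.85, 0.00497) and Nlrp5 (−1.01, 0.0151) passed. With the 11 labelled Old1_2 left out, none did, and the values were −0.08, −0.29, −0.03 and +0.04. The shares of all genes called in these fits are not given here, so the counts of members have no background beside them. With each Young mouse label left out in turn, or with counts summed per mouse, no member passed, and the Khdc3 difference was −0.38 in the sums (adjusted p = 0.652). Old1_2 oocytes also held less of the oocyte markers (mean 15030 CPM, against 18700 in Old3 and 18590 in Young), more cumulus markers (1410 CPM, against 486 and 474) and more mitochondrial counts (1.87%, against 0.656% and 0.976%). Of the 12 cumulus markers, 4 (Amh, Amhr2, Cyp19a1 and Nr5a2) were called higher in Old oocytes. After a correction for gene length and GC content, chosen after seeing the data, Padi6 passed (−0.87, adjusted p = 0.0471) and Khdc3 did not (−0.37, 0.0620). With the marker share as a covariate the Khdc3 difference was −0.38 (adjusted p = 0.271) and that of Padi6 −0.68 (0.310). The part of cumulus RNA, mitochondrial counts and depth in these differences was not tested further.

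Middle oocytes were not separated from either neighbour. Between Middle and Young, 0 of 8 members and 0% of 22958 genes passed edgeR's test, 0 members had an unadjusted p under 0.05, and DESeq2 called 0. Between Old and Middle, 0 of 8 members and 0% of 23347 genes passed, although Tle6 (−0.48, p = 0.0171), Khdc3 (−0.44, p = 0.0136), Padi6 (−0.71, p = 0.0319) and Nlrp2 (−0.35, p = 0.0125) had unadjusted p-values under 0.05 in edgeR's fit; DESeq2 called 0. Without Old3, 5 members passed in this comparison. The share of all genes called in that fit is not given here, and the 0% above is that of the fit with all Old oocytes.

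The second set asked the question again with more mice. Here Khdc3 was again lower at 14 months, by less, and no other member differed between 14 and 2 months. It was 177, 230 and 280 CPM in 24 2mo, 179, 220.5 and 286 in 39 4mo, 197, 231 and 265 in 16 9mo and 147, 200.3 and 230.1 in 16 14mo oocytes. Of the 24 2mo oocytes, 12 lay above every 14mo oocyte, and 15 of 16 14mo oocytes were under the 2mo median. The difference was −0.25 (SE 0.05, adjusted p = 0.00566, edgeR), or 1.19-fold, and 1.14% of 22659 genes were called in this comparison, 0.477% lower. It lost the call without 1 mouse at 14 months (14mo40, −0.21, adjusted p = 0.0800) or at 2 months (2mo34, −0.22, 0.0511), and when counts were summed per mouse (−0.22, 0.163).

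Padi6, the member with the widest spread in Old oocytes, was 2468, 3430 and 4144 CPM at 2 months and 2792, 3429 and 4205 at 14 months (−0.04, SE 0.05). Nlrp5 was 1065, 1526 and 1987 at 2 months and 1020, 1624 and 1967 at 14 months (+0.02, SE 0.07). Tle6 was 1158, 1277 and 1567 and then 1140, 1283 and 1525 (−0.02, SE 0.04). For these 3 genes the ranges at 2 and 14 months nearly coincided, and no low oocytes were seen at any age. Nlrp4f (+0.09, SE 0.04), Zbed3 (−0.09, SE 0.04), Nlrp2 (+0.09, SE 0.05) and Ooep (−0.08, SE 0.04) did not pass either.

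Ooep, a core member, was highest at 9 months. It was 467, 579 and 657 CPM at 2 months, 393, 623.5 and 827 at 4 months, 517, 645 and 788 at 9 months and 471, 562 and 680 at 14 months. Between 14 and 9 months it was lower by 0.24 on the log2 scale (log2 difference −0.24, SE 0.04, adjusted p = 0.0223, edgeR), 1 of 8 members against 0.0136% of 22119 genes (0.00904% lower), and 15 of 16 14mo oocytes were below the 9mo median. Khdc3 was at −0.26 (SE 0.05, adjusted p = 0.0503) in this comparison, with 16 of 16 below the 9mo median. The Ooep call was lost on leaving out any of 5 mice (14mo38, 14mo40, 14mo41, 9mo21 or 9mo24), where its difference was −0.24 to −0.23. Between 9 and 2 months 0 of 8 members passed (0.16% of 22514 genes), with Ooep at +0.17 (SE 0.04, p = 0.000344, adjusted p = 0.102) and Tle6 at +0.08 (p = 0.0453) under an unadjusted p of 0.05, and DESeq2 called 1, Ooep. Between 4 and 2 months 0 of 8 passed (0.0126% of 23737 genes), with 2 members under an unadjusted p of 0.05, Ooep at +0.11 and Tle6 at +0.08, and DESeq2 called 0.

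**Figure D3:**
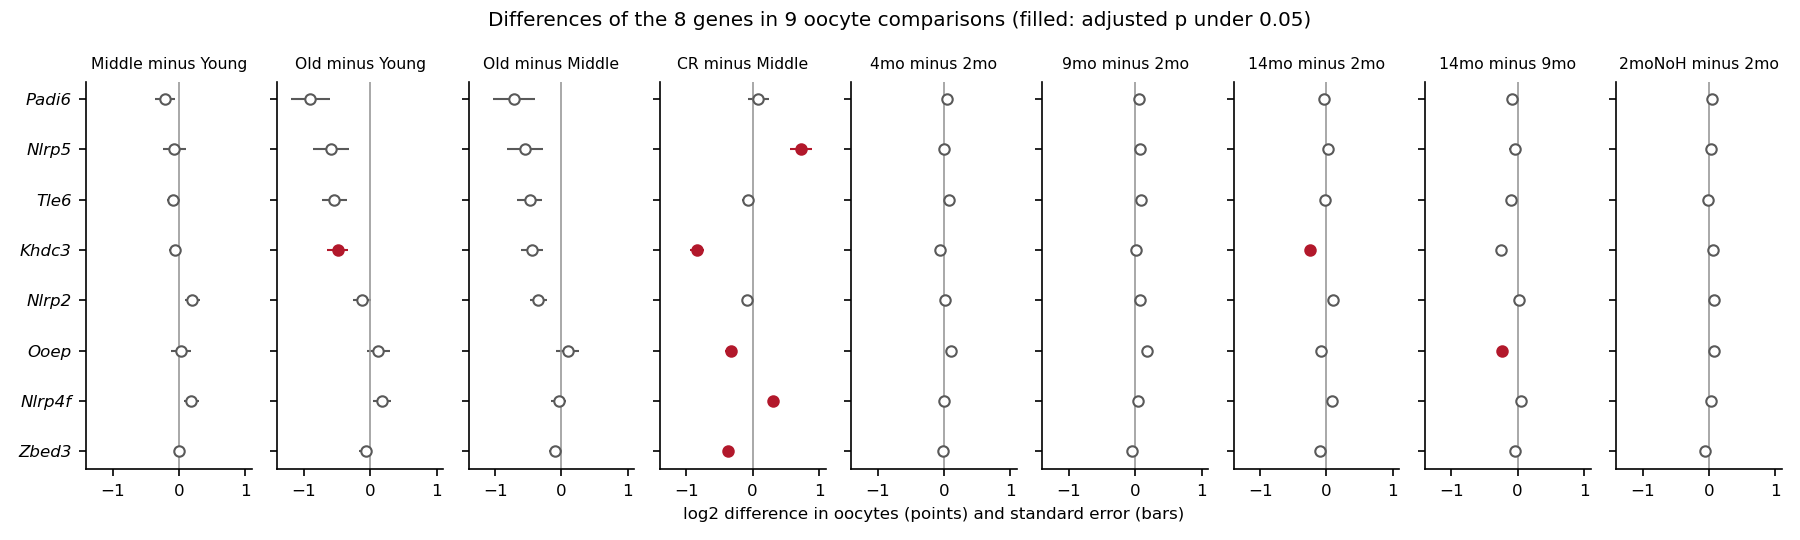
Log2 differences of the 8 genes between oocyte groups (points) with standard errors (bars) from edgeR's fit, in 9 comparisons with the same axis. Filled red points passed the test at a false discovery rate of 5%. The differences at 14 months run from −0.90 to +0.17 for Old minus Young and from −0.25 to +0.09 for 14mo minus 2mo.

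The change from 2 to 14 months was compared between the sets in 1 model. None of the 8 genes passed the test of the difference between sets, against 5.25% of 25233 genes. Padi6 (0.86, SE 0.28, adjusted p = 0.0518), Tle6 (0.51, SE 0.17, 0.0599) and Nlrp5 (0.61, SE 0.26, 0.147) had the largest values, positive where the second set had the higher value of 14 minus 2 months, and DESeq2 called 2 of 8 (Padi6 and Tle6). Under an unadjusted p of 0.05 were these 3 members in edgeR's fit. Without Old3, Khdc3, Nlrp5, Padi6 and Tle6 passed, and without Old1_2 none did (Padi6 0.28), with no share of all genes given here for these fits. Within-group spread differed too. The coefficient of variation in Old oocytes was 75.2% for Padi6, 66.2% for Nlrp5, 49.5% for Tle6 and 48.5% for Ooep, and 18.5% for Zbed3, the least variable. In the second set Padi6 was at 12.2% and Nlrp5 at 16.7% at 14 months.

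The second question was the effect of calorie restriction at 9 months. In CR oocytes Nlrp5 and Nlrp4f rose and Khdc3, Zbed3 and Ooep fell relative to Middle, while Tle6, Padi6 and Nlrp2 did not pass the test. The 5 called members stand beside 30% of 25276 genes called in this comparison, 15.8% higher and 14.2% lower, so a large part of the oocyte transcriptome was called along with them. Depth separated the groups fully, so calorie restriction and library depth cannot be told apart. The RPKM values that the authors deposited for the CR libraries do not follow from the counts deposited for them. The counts were used here, and the reason for the mismatch is not known.

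Khdc3 was 170, 227 and 349 CPM in Middle and 39.6, 128.5 and 169.5 in CR oocytes, and all 27 CR oocytes lay below all 14 Middle oocytes. It fell by 0.84 on the log2 scale (SE 0.11, adjusted p = 5.4e-08, edgeR), or 1.79-fold. Zbed3 fell from 6014, 7712 and 9061 to 4863, 6022 and 7105 CPM (−0.37, SE 0.05, adjusted p = 6.2e-08), with 27 of 27 CR oocytes under the Middle median and 13 below every Middle oocyte. Ooep was 319, 521 and 943 in Middle and 338, 415 and 563 in CR (−0.33, SE 0.08, adjusted p = 0.00161), with 25 of 27 under the Middle median but ranges that overlapped. Without mouse Middle2 the Ooep difference was −0.20 (adjusted p = 0.0987), which lost the call.

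Nlrp5 was 422, 1466 and 2143 CPM in Middle and 486, 2517 and 3309 in CR oocytes, with 23 of 27 CR oocytes above every Middle oocyte (+0.73, SE 0.17, adjusted p = 0.000556). Nlrp4f was 1108, 1559 and 1761 in Middle and 1643, 1921 and 2220 in CR, with 22 of 27 above every Middle oocyte (+0.31, SE 0.05, adjusted p = 5.3e-06). These were the longest members, and the groups separated nearly as well for them as for Khdc3. Padi6 was 955, 3951 and 4978 in Middle and 662, 4278 and 5267 in CR (+0.08, SE 0.16). Tle6 was 905, 1245 and 1696 and then 417, 1255 and 1439 (−0.07, SE 0.09). Nlrp2 was 286, 483 and 676 and then 253, 459 and 575 (−0.08, SE 0.08). For these 3 the ranges overlapped throughout.

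**Figure D4:**
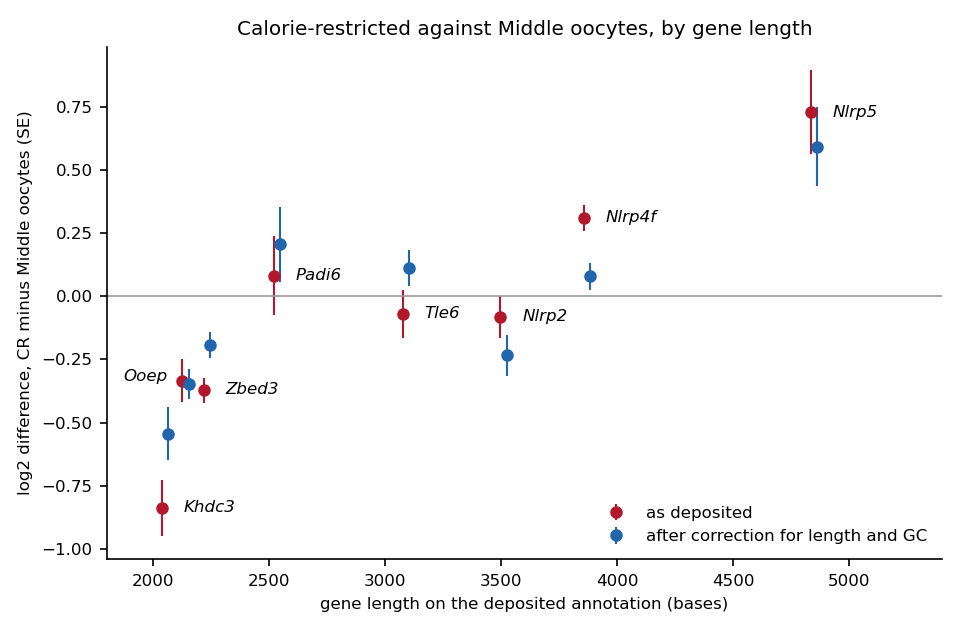
Log2 difference between CR and Middle oocytes (points) with its standard error (bars) against gene length in bases, for the counts as deposited (red) and after a correction for gene length and GC content (blue), with the 2 colours set slightly apart sideways. Khdc3 is lowest and Nlrp5 highest in both, with r = 0.892 as deposited and 0.768 after correction over the 8 genes.

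The differences tended to be higher in longer genes, but not in strict order. Padi6 (2532 bases, +0.08) lay above the longer Tle6 (3088 bases, −0.07) and Nlrp2 (3509 bases, −0.08). The difference correlated with log10 length at r = 0.892 over the 8 genes, which share the same libraries, from Khdc3 (2050 bases, −0.84) to Nlrp5 (4847 bases, +0.73). Over all genes tested, grouped into 5 bins of length, the median difference was −0.07 in the shortest and +0.10 in the longest. After the correction for length and GC content Khdc3 (−0.54), Ooep (−0.35), Zbed3 (−0.19), Nlrp2 (−0.23, adjusted p = 0.0255) and Nlrp5 (+0.59) were called and Nlrp4f (+0.08, adjusted p = 0.287) was not, and r was 0.768. In Old against Young r was −0.046 and in 14mo against 2mo 0.788. With counts summed per mouse only Khdc3 passed (−0.89, adjusted p = 0.0103).

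The third question was the effect of hyperovulation, compared at 2 months. In oocytes none of the 8 genes differed between 2moNoH and 2mo (0.0299% of 23373 genes called, 0 members under an unadjusted p of 0.05 in edgeR, 0 by DESeq2). The largest difference was that of Ooep, +0.08 (SE 0.04), with 467, 579 and 657 CPM in 24 2mo and 467, 594 and 789 in 32 2moNoH oocytes. Padi6 was at +0.04 (SE 0.04), Nlrp5 at +0.03 (SE 0.06), Tle6 at −0.01 (SE 0.03), Khdc3 at +0.06 (SE 0.05), Nlrp2 at +0.07 (SE 0.04), Nlrp4f at +0.03 (SE 0.04) and Zbed3 at −0.05 (SE 0.04).

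Names of second-set complexes begin with B1 or B2, which the labels do not explain, and no mouse had both. Ooep and Khdc3 were higher in B1 in 5 of 5 groups and Nlrp4f in B2 in 5 of 5. In the 2moNoH group, mouse means of Khdc3 were 244 to 287 CPM in 4 B1 mice and 187 to 236 in 4 B2 mice, and those of Zbed3 8159 to 8504 and 7001 to 7202. Those of Ooep were 620 to 711 in B1 and 481 to 578 in B2, and those of Nlrp4f 1390 to 1566 and 1652 to 1796. For each of these 4 the mouse means of the prefixes did not overlap, and for Khdc3, Ooep and Zbed3 B2 was 0.777, 0.783 and 0.847 times B1. Those of Tle6 did not overlap either (1327 to 1398 in B1 and 1149 to 1302 in B2), whereas those of Nlrp5, Padi6 and Nlrp2 did. How many of all genes differed in this way between prefixes was not tested. Within B1, Ooep was higher in 2moNoH (+0.20, adjusted p = 0.0204), and within prefixes the Khdc3 difference at 14 months was −0.18 (B1, adjusted p = 0.153) and −0.31 (B2, 0.173).

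The last question was how much of these transcripts appeared in cumulus libraries. In bulk pools such as these, fewer cells and less RNA per cell cannot be told apart. All 8 genes were higher in oocytes than in cumulus cells in both Young (85.6% of 25325 genes called, 40.7% higher in the oocyte) and 2mo (88.4% of 26662, 42.3% higher), under edgeR's test and with oocyte and cumulus of the same complex as a block. Relative to the oocyte mean, the cumulus mean of Nlrp5 was 0.0144% (first set) and 0.00259% (second set), that of Padi6 0.0321% and 0.00333%, that of Khdc3 0.0584% and 0.00695%, and that of Ooep 0.134% and 0.0333%. Nlrp2 and Nlrp4f had 0.00604% and 0.0156% in the first set and no count in any of the 128 cumulus libraries of the second. In the first set, 1 library of mouse CR3 held 61.2% of the summed cumulus CPM of Padi6, 64.6% of that of Nlrp2 and 61.6% of that of Nlrp4f, and without it the shares were 0.0126%, 0.00217% and 0.00606%. Without its highest library the share of Khdc3 was 0.0410% (first set, mouse Young2) and 0.00345% (second set, mouse 9mo22). Medians of these 6 were 0 in both sets, and they were all at 0 in 30 of 71 and 93 of 128 libraries. For comparison, the median over the 13 oocyte markers was 0.0704% and 0.0183%.

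Tle6 and Zbed3 were detected far more evenly in cumulus cells. Tle6 had counts in 71 of 71 and 118 of 128 cumulus libraries, at 0.894% and 0.814% of the oocyte mean, and Zbed3 had counts in all 71 and all 128, at 0.373% and 0.236%. Over the cumulus libraries, log2 CPM of the other 6 summed correlated with the oocyte markers at r = 0.567 in the first set, where a few libraries held most of the counts, and 0.083 in the second. For Zbed3 r was 0.472 and 0.002 and for Tle6 0.421 and 0.304. In the cumulus library with most of the 6 genes, of mouse CR3, Padi6 had 87 counts (51.6 CPM) and Zbed3 226 counts (134 CPM). Among the 13 oocyte markers, Kit had the highest mean in cumulus libraries, at 13.11 CPM (first set) and 10.71 CPM (second set). Gdf9 followed at 2.927 and 3.244 CPM. The r values are thus with a marker sum in which Kit weighs most, and whether they follow oocyte RNA was not tested.

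**Figure D5:**
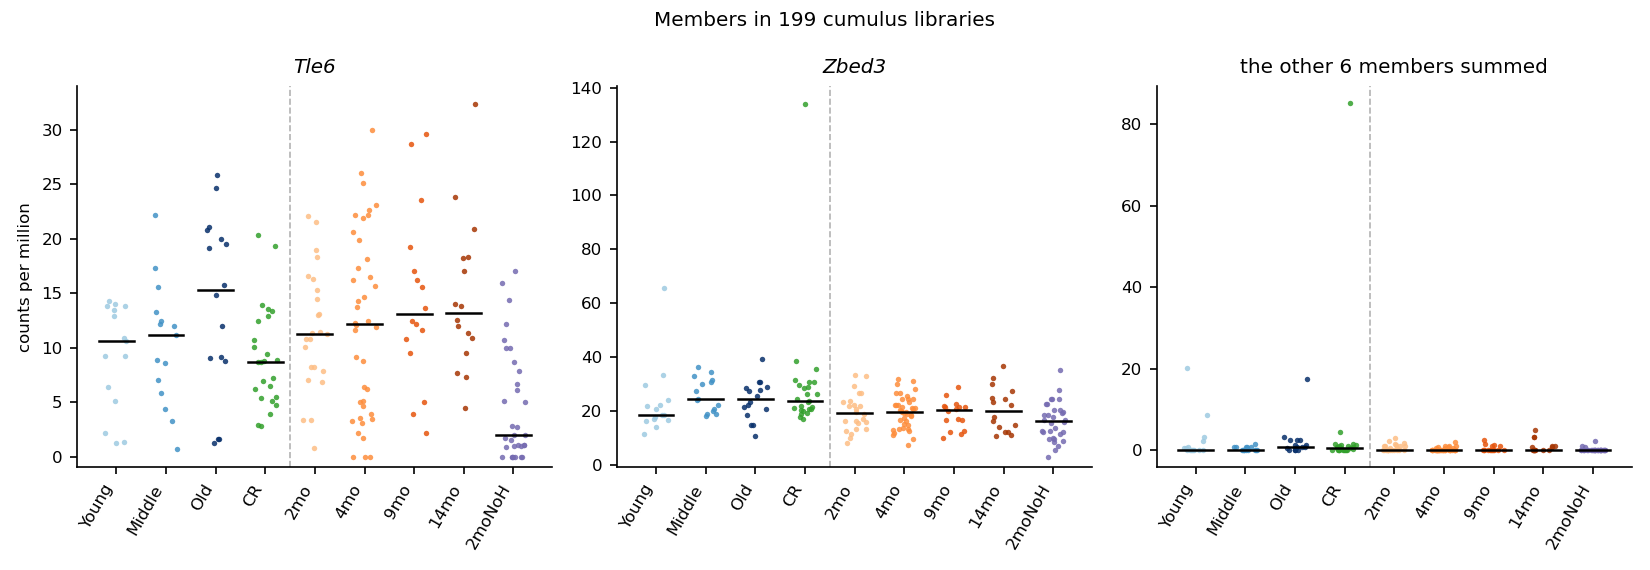
CPM (linear axes of unequal range) of Tle6, of Zbed3 and of the other 6 genes summed in each cumulus library, by group, with the dashed line between the sets. Points are libraries and bars are medians. Tle6 is at a median of 1.97 CPM in 2moNoH against 11.3 in 2mo, and Zbed3 at 16.2 against 19.2.

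Tle6 was lower in cumulus cells of mice without hyperovulation. It was 0.739, 11.3 and 22.1 CPM in 24 2mo and 0, 1.97 and 17.04 in 32 2moNoH cumulus libraries, and 28 of 32 2moNoH libraries lay below the 2mo median. It had no count in 7 2moNoH libraries and in 0 of 24 2mo libraries, where 3 counts would be the limit of detection, for counting error only. The mean was 11.7 ± 5.6 CPM in 2mo and 4.63 ± 5.17 in 2moNoH (SD), and the difference was −1.33 (SE 0.32, adjusted p = 0.00262, edgeR). Of the 8 genes 3 could be tested and 2 were called, Tle6 and Ooep, against 13.2% of 24161 genes, of which 6.16% were lower. Ooep had at most 3 counts in any 2mo and 2 in any 2moNoH library, so no fold is given for it. Zbed3 was at −0.29 and not called (adjusted p = 0.229), with 8.20, 19.2 and 33.1 CPM in 2mo and 3.04, 16.2 and 35.3 in 2moNoH.

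The Tle6 difference passed without each mouse in turn, within B2 (−2.21, adjusted p = 0.0126) but not within B1 (−0.81, 0.119), and not with counts summed per mouse (−1.35, 0.151). Cumulus markers were also lower in 2moNoH cumulus cells, with a median of 11500 CPM against 15660 in 2mo, and 5 of the 12 (Cyp19a1, Foxl2, Fshr, Gja1 and Inhba) were called lower. Whether Tle6 moved with that change was not tested. Set against the oocytes of the same groups, the Tle6 difference in cumulus cells was larger by −1.33 (SE 0.25, adjusted p = 0.00015, edgeR). In this test of the difference between cell types, chosen after seeing the data, 4.05% of 30006 genes were called, 1.91% lower. Oocyte and cumulus libraries of a complex entered it as independent, without pairing.

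In the other cumulus comparisons no member passed edgeR's test. Of 6 genes tested between Old and Young 0 passed (3.96% of 23091 genes), 2 (Ooep and Nlrp4f) had an unadjusted p under 0.05, and DESeq2 called 0. Of 5 tested between CR and Middle 0 passed (3.6% of 24657), 2 (Ooep and Padi6) had an unadjusted p under 0.05, and DESeq2 called 0. Of 3 tested between 14mo and 2mo 0 passed (1.7% of 22862), 0 had an unadjusted p under 0.05, and DESeq2 called 0. Tle6 medians were 10.6 CPM in Young, 11.1 in Middle, 15.3 in Old and 8.69 in CR, and 12.2, 13.1 and 13.2 at 4, 9 and 14 months, with ranges that overlapped widely.

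Related genes were counted from lists chosen with earlier results of these data known. Of the Nlrp relatives, 4 of 14 tested were called higher in CR than in Middle and 0 lower (15.8% and 14.2% of all genes tested), among them Nlrp14 (+0.42, SE 0.13, adjusted p = 0.00969), Nlrp4a (+0.52) and Nlrp4b (+0.51), beside Nlrp5 and Nlrp4f. Of 16 relatives of Padi6, Khdc3, Tle6 and Zbed3, 4 were higher (for example Khdc1a, +0.57, and Dppa5a, +0.87) and 4 lower (for example Zbed5, −0.61, and Aes, −0.62). Of 25 other maternal effect genes, 5 were higher, among them Spin1 (+0.24) and Ezh2 (+0.30), and 7 lower, among them Uchl1 (−0.43) and Zfp57 (−0.22), which helps keep imprints. Of 14 oocyte transcription factors, Taf4b (+0.47) and Sohlh1 (+1.61, SE 0.46) were higher and Tcf3 (−0.71) and Figla (−0.36) lower. Sohlh1 had a mean of only 1.08 CPM in oocytes of the first set. The median difference of the 8 members was −0.08, and the medians of these 4 lists were +0.15, −0.09, −0.03 and −0.03, beside 0.00 over all genes.

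Between Old and Young, 3 of 25 maternal effect genes were called lower and none higher (2.99% of all genes tested were lower, and 7.39% were called), among them Tet3, a dioxygenase of methylated cytosine (−0.83, SE 0.26, adjusted p = 0.0426), and 0 of the 14 transcription factors passed. Of the Nlrp relatives 1 was higher and 1 lower (Nlrp1a, with a mean of only 0.057 CPM in oocytes of the first set), and of the Padi6, Khdc3, Tle6 and Zbed3 relatives 1 was lower. Between 14mo and 2mo Figla was lower (−0.33, SE 0.08, adjusted p = 0.0250), 1 of the 14 factors, where 0.477% of all genes were. Over all oocytes the genes most like the members' mean, out of 9076 genes with at least 10 CPM, were Zp3 (r = 0.805 and 0.754 in the 2 sets), Oas1c (0.818 and 0.743), Gdf9 (0.761 and 0.668), Dnmt1 (0.751 and 0.667) and Zp1 (0.857 and 0.662), over 73 and 127 libraries that share mice and differ in depth.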

How the data were processed

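RamDA-seq reads had been trimmed with Fastq-mcf, mapped to GRCm38 with HISAT2 2.0.5 and counted on GENCODE vM15 genes with featureCounts 1.5.1 by the authors, who shared reads mapped to several places between genes. The deposited values are expected counts (36.77% and 35.09% of nonzero values in the 2 sets not whole), rounded here before testing. RPKM values calculated and deposited by the authors were used with the counts to derive gene lengths, from libraries other than CR. The RPKM values of the CR libraries do not follow from their deposited counts, and the counts were used for all tests. Cumulus shares given here are of CPM.

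The members and lists were chosen with earlier results of these data known. Members are named always, genes of 4 related lists where they passed in an oocyte comparison (at most 3 per list and direction, by mean CPM), and the 5 genes most alike. Pairs of groups were compared by the quasi-likelihood test of edgeR 4.0.16 (R 4.3.3, TMM scaling, checked on simulated data) over all genes counted in 5 libraries or more, at a false discovery rate of 5% (Benjamini-Hochberg). DESeq2 1.42.0 (counts as above), other scalings, filters, covariates, sums per mouse, a replicate block and left-out mice were alternatives. Intervals and floors (3 counts) cover counting error only. Correlations used log2(CPM + 1). Equal mouse numbers in different groups (Middle1, CR1) name different mice, so groups were not paired. The complex whose oocyte library resembled cumulus cells was left out.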

Additional observations from a re-analysis of the deposited data

Results flagged for a closer look

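Mouse means were compared within groups of 4 to 8 mouse labels. In 4 of 60 sets of means 1 mouse lay far from the others, where chance gives about 1 in 20. This count is close to that rate, so the 4 mice are named as a description only. In cumulus cells Tle6 was low in mouse 4mo26 (3.28 CPM) and mouse 9mo22 (8.90 CPM) and high in mouse 14mo38 (25.4 CPM). In oocytes Nlrp2 was low in mouse 14mo41 (456 CPM).

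The effect of hyperovulation on Tle6 differed between cell types by −1.33 on the log2 scale in a test of the difference itself.

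The oocyte library of the complex left out, which resembled cumulus cells, held 4 of the genes above every analysed cumulus library. In CPM (unscaled) it held Nlrp5 at 7.58 (highest cumulus library 6.17), Ooep at 50.7 (14.2), Khdc3 at 2.92 (2.48) and Nlrp2 at 5.25 (1.23), all far below oocyte levels.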

How the results depend on the processing

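Over the comparisons in the report, no member's difference that had passed its test changed sign under any alternative run. The fit with oocyte and cumulus of each complex as a replicate block called 8 members in both Young and 2mo, as without the block. Between Old and Young the count of 1 member became 3 with DESeq2, with RLE size factors and with filterByExpr, 4 with all groups in one fit, and 0 with counts summed per mouse, with the marker share as covariate, without a filter, and, chosen after seeing the data, without the 3 oocytes least like the others or the oocyte highest in cumulus markers. The length and GC correction gave 1, but it was Padi6 and not Khdc3. Between CR and Middle the 5 became 2 with all deposited libraries and 1 with sums per mouse. For 9mo against 2mo DESeq2 called 1. For 14mo against 2mo the 1 call became 0 within B1 or B2, with sums per mouse and with the marker covariate. For 14mo against 9mo the 1 call became 2 with DESeq2, RLE, filterByExpr, no filter and the name prefix as covariate, and 0 with all groups in one fit, B1 or B2 only, sums per mouse, the length and GC correction and the marker covariate. For 2moNoH against 2mo, B1 oocytes gave 1, and in cumulus cells the 2 became 1 with DESeq2, filterByExpr, B1 or B2 only and 0 with sums per mouse. The difference between sets gave 2 with DESeq2, RLE and filterByExpr and 1 without the 3 oocytes, and that between cell types 1 with DESeq2 or B2 only and 0 with sums per mouse. In the cumulus comparison of 2moNoH with 2mo, Ooep was not tested with filterByExpr or within B2, and it had no adjusted p with DESeq2. The cause of the other shifts was not tested. Leaving out each mouse gave 0 to 4 for Old against Young, 0 to 5 for Old against Middle, 4 to 5 for CR against Middle, 0 to 1 for 9mo and for 14mo against 2mo, 0 to 2 for 14mo against 9mo, 1 to 3 for 2moNoH cumulus cells, 4 to 8 for Young oocytes against cumulus cells, 0 to 4 between sets and 1 to 2 between cell types. In Young oocytes against cumulus cells, Nlrp5, Khdc3, Nlrp2 and Nlrp4f were each called in all 7 alternative fits that tested them. Ooep, Tle6, Padi6 and Zbed3 were each called in all 8. The shares of all genes called in the alternative fits are not given here. Library sizes from ERCC spike-ins were not run, as no such rows were used here. In cumulus libraries 6 members were mostly at or under 3 counts, and sizes of differences in them cannot be given at this depth.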
